A study of Homo sapiens with 6 samples.

Results

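The kinesins, the motor proteins that walk along or take apart microtubules, were described by the RNA of their genes in NCI-H226. This established human line is labelled as a mesothelioma of the pleura. Members were all genes whose symbol is KIF followed by a number and at most one letter from A to C, or KIFC1, KIFC2 or KIFC3. These were 42 of the 60676 genes in the table. By textbook role, and with earlier results of these data known, 12 were placed in a mitotic class, 15 in a transport class and 15 in a class of other kinesins. HC278 libraries came from cells given 500 nM of HC278 for 24 h (3 libraries, numbered 1, 2 and 6), and DMSO libraries from cells given the solvent for the same time (3 libraries, numbered 1, 2 and 3). All cells were of the same line and grew in the same serum-containing medium. The study's title calls HC278 a degrader of TEAD, the DNA-binding partner of the co-activators YAP1 and WWTR1. The comparison addresses which transcripts differed under it. Nothing in the labels says that the libraries came from separate cultures, so the p-values below speak for the scatter among these 6 libraries alone, part of which can be technical.

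Kinesins share a motor domain that turns ATP hydrolysis into movement or force on microtubules. Mitotic kinesins push the spindle poles apart, move and align chromosomes and build the midzone at which the cell divides, and their transcripts are known to rise as proliferating cells approach mitosis. Transport kinesins carry vesicles, mitochondria and other cargo through the cytoplasm and cilia, at all stages of the cell cycle and in cells that no longer divide. In bulk RNA, fewer cells at one stage of the cycle and less RNA per cell cannot be told apart.

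The classes also differed in a feature that uses no expression value, the sequence of their promoters. Many genes transcribed late in the cell cycle carry a short element near their start, the cell cycle genes homology region or CHR, read by the DREAM and MMB complexes, often with a CCAAT box bound by NF-Y a few turns of DNA upstream. Windows from 250 bases before to 50 bases after the start were taken from RefSeq (GRCh38.p14) and searched on both strands for CHR (TTTGAA or TTCGAA) and for CCAAT, whose matches may share a base. The upstream sequence of the 9 mitotic kinesins that fell under HC278 is printed first, from 100 bases before the start to the 10th base of the transcript, 5′ to 3′ on the gene's strand. KIF24 and the transport motors KIF1C and KIF5B follow for contrast. The window of KIF5B also holds a CHR match, at positions -140 to -135, which lies before the printed part. Capitals mark a CHR or CCAAT match in either direction, so that TTCAAA and ATTGG are matches on the opposite strand.
KIF23, chr15:69414249-69414358, plus strand: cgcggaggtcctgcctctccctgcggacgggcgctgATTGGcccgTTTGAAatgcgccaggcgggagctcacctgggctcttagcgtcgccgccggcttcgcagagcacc
KIF4A, chrX:70290004-70290113, plus strand: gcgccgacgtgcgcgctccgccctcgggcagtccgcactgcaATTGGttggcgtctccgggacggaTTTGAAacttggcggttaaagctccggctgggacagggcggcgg
KIF11, chr10:92593030-92593139, plus strand: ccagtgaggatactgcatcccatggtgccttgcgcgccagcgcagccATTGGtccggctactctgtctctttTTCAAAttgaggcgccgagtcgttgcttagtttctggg
KIF18A, chr11:28108147-28108256, minus strand: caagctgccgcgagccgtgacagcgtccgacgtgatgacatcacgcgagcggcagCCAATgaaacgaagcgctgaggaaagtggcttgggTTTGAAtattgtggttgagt
KIF18B, chr17:44947764-44947873, minus strand: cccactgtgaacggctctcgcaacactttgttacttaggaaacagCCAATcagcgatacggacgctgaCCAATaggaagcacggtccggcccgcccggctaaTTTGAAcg
KIFC1, chr6:33391723-33391832, plus strand: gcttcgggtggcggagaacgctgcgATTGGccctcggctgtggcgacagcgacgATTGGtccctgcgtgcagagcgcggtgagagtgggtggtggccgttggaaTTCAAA
KIF15, chr3:44761694-44761803, plus strand: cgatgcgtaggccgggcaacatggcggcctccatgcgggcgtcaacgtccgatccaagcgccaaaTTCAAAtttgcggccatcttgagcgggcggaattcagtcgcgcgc
KIF20A, chr5:138179012-138179121, plus strand: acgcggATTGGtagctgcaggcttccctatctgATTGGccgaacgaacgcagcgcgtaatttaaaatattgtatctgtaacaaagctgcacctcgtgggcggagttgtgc
KIF2C, chr1:44739737-44739846, plus strand: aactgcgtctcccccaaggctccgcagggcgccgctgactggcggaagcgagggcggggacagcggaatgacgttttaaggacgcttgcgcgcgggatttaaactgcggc
KIF24, chr9:34329259-34329368, minus strand: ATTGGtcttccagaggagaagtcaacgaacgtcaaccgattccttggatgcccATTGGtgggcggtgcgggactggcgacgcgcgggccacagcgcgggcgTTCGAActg
KIF1C, chr17:4997850-4997959, plus strand: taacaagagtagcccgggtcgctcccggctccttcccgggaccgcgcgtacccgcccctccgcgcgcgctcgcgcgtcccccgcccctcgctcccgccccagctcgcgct
KIF5B, chr10:32056416-32056525, minus strand: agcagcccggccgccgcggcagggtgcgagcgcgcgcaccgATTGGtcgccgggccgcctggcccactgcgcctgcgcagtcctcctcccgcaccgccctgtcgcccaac

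A CHR match was present in the window of 10 of the 12 mitotic kinesins, against 1 of the 11 transport kinesins with a window in the table and 2 of the 11 other kinesins. It was present in 19.54% of all 27305 genes of the RefSeq table and in 15.51% of the 10774 genes that were both tested here and had a window. CCAAT was found in 10 of 12 mitotic, 4 of 11 transport and 4 of 11 other kinesins. It was in 39.72% of all genes and in 43.11% of the tested genes with a window. In 8 of the 12 mitotic kinesins a CCAAT match began at most 60 bases before a CHR match. No transport kinesin and 2 other kinesins, KIF24 and KIF4B, had that arrangement, against 2.157% of all genes. The 60-base limit was set after the positions had been seen. From the start of CCAAT to the start of CHR the distance was 9 bases in KIF23, 24 in KIF4A, 25 in KIF11, 34 in KIF18B, 35 in KIF18A and 50 in KIFC1, as can be read from the lines above. KIF15 had CHR without CCAAT, KIF20A CCAAT without CHR, and KIF2C neither. The RefSeq start of KIF24 lies upstream of the gene as the expression table places it, and no test of the shares was made.

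A TEAD match, GGAATG on either strand, was in 2 of 12 mitotic kinesins (KIF2C and KIF22), in 3 of 11 transport kinesins and in 16.73% of all genes. In the KIF2C line it lies in lower case. Of the E2F motifs TTTCCCGC, TTTGGCGC, TTTCGCGC and TTTGCCGC, 1 of 12 mitotic, 0 of 11 transport and 1 of 11 other kinesins held one. Such a motif was in 3.992% of all genes and in 6.599% of the tested genes with a window. These matches are letters in a window and do not show that a factor was bound there. The windows of KIF5A, KIF13B, KIFC2, KIFC3, KIF19, KIF21B, KIF26B and KIF27 were not used here.

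**Figure D1:**
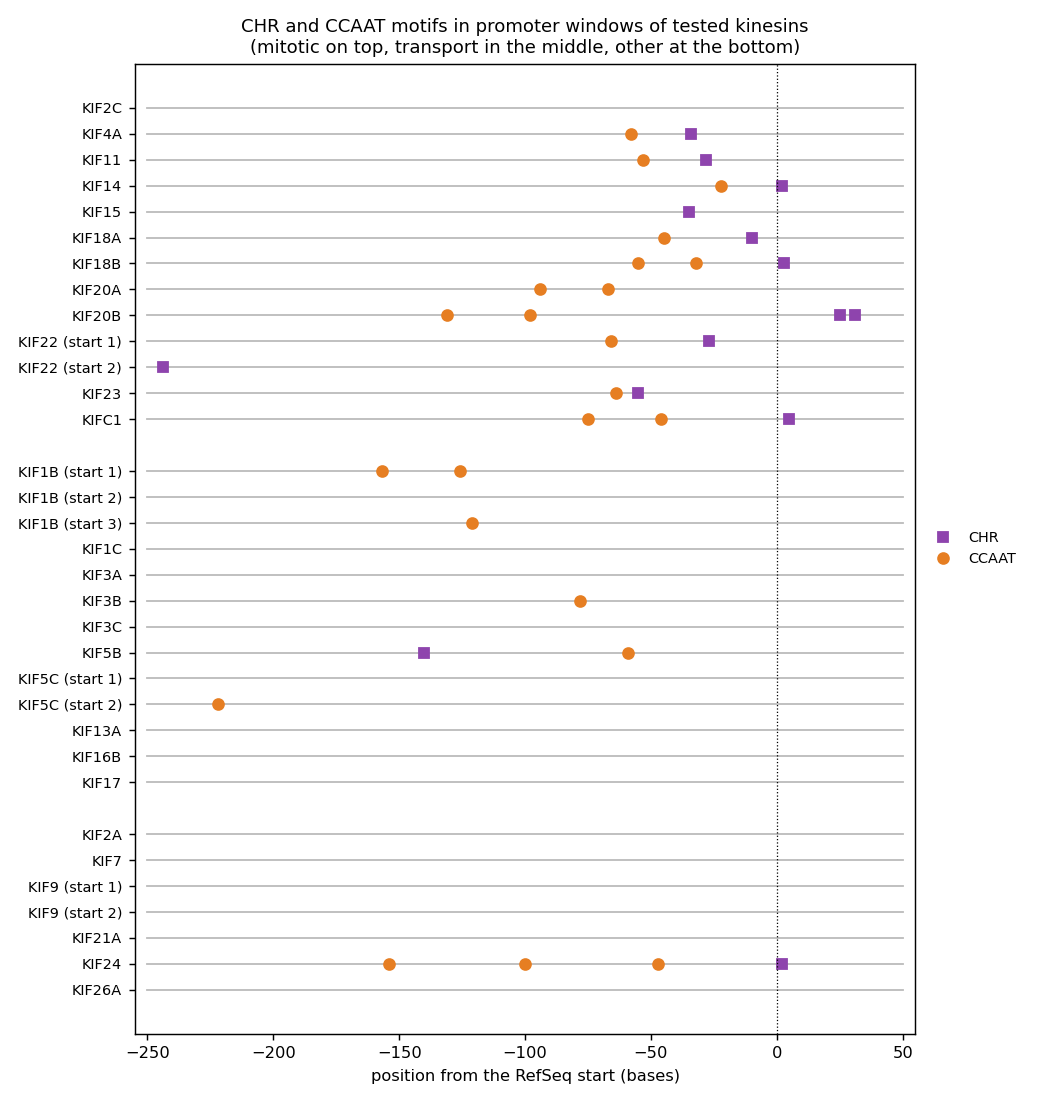
Position of CHR matches (squares) and CCAAT matches (circles) in the promoter windows of the tested kinesins, in bases from the RefSeq start (dotted line). Genes with more than one listed start have a line for each. Among mitotic kinesins, 9 of 12 carry both motifs, and among the transport kinesins KIF5B carries both.

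Counts were compared with edgeR's quasi-likelihood test over all 15510 genes that passed its filter. A gene was called where the Benjamini-Hochberg adjusted p was under 0.05. Levels are CPM, counts scaled to a common total by the TMM-scaled library size. Triplets of values run in the order of HC278 replicates 1, 2 and 6 and DMSO replicates 1, 2 and 3, means are ± SD with n = 3 libraries a group, and fold changes are HC278 over DMSO. Of the 42 kinesins, 34 were tested. Background shares for reading the counts below were 10.8% of all tested genes called in either direction, 5.38% called lower and 5.4% called higher. All HC278 libraries lay below all DMSO libraries in 17.5% of tested genes and above them in 17.0%.

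Depth was even, from 30486316 to 32646223 counts in the HC278 libraries and from 32532357 to 33181814 in the DMSO libraries. The mesothelial markers KRT8, KRT18, KRT19, MSLN, CALB2, WT1, UPK3B, UPK1B, PDPN and ITLN1 all passed the filter, and 3 were called higher and 1 lower. Of the 7 immune and endothelial markers 2 were tested. CD14, at 1.998, 1.87 and 1.26 CPM with HC278, against 0.626, 0.816 and 0.591 CPM with DMSO, was called higher (log2 fold change 1.33, SE 0.27, adjusted p = 0.0322), VWF was not called, PTPRC and PECAM1 had at most 11 counts in a library, and CD3E had none. The part of these markers in the results was not tested. HC278 replicate 6 stood apart from HC278 replicates 1 and 2, and DMSO replicate 3 from DMSO replicates 1 and 2 in the same sense. Deviations by gene length were taken from the mean of all libraries of both groups, on the log2 scale. Genes of the upper tertile of length had a median of 0.30 in HC278 replicate 6 and 0.14 in DMSO replicate 3. Those of the lower tertile had -0.31 and -0.20. In HC278 replicate 6, relative to the other HC278 libraries, 27 of 34 tested kinesins were higher. The median difference over all 34 was 0.42 on the log2 scale, and over all 15510 tested genes 0.01. Across the 12 mitotic kinesins this gap had a Pearson r of 0.78 with log2 exon length and of -0.70 with GC content, a description over genes that share the same libraries. Length and GC content moved with this library, and their part in the results was not tested beyond the fits given below.

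Under HC278, 9 of the 12 mitotic kinesins fell and none rose, against 5.38% of all tested genes called lower. At an unadjusted p under 0.05, 11 of them were lower and 0 higher, where 12.8% of all tested genes were lower and 13.8% higher at that threshold. DESeq2 and limma-voom also called 9 lower and 0 higher. Of all 15510 tested genes, DESeq2 called 1454 lower and 1364 higher, and limma-voom 862 lower and 834 higher. The median log2 fold change of the mitotic kinesins in the edgeR fit was -1.03, with a range from -1.41 to -0.68. The median of all tested genes was 0.05. Of the 13 tested transport kinesins, 2 were called higher and none lower, against 5.4% of all tested genes called higher, and their log2 fold changes ran from -0.55 to 0.99 around a median of -0.01. At an unadjusted p under 0.05, 2 transport kinesins were lower and 2 higher, and DESeq2 called 1 lower. Among 9 tested other kinesins, 1 was called lower, with a median of -0.30. KIF2A, which acts both at spindle poles and in neurites, was placed among the other kinesins. Its log2 fold change of -0.32 lies inside the transport range, so with KIF2A in the mitotic class the ranges would overlap. As the classes were drawn, the mitotic and transport ranges did not overlap in this fit. They did overlap without HC278 replicate 1 or 6, without DMSO replicate 3, without both HC278 replicate 6 and DMSO replicate 3, with the replicate number as a block and with the GC trend taken out. Without HC278 replicate 6, for example, mitotic values reached up to -0.43 (KIF22) and transport values down to -0.59 (KIF5B).

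The mitotic calls rested on all 3 DMSO libraries. With any 1 DMSO library left out, edgeR called no mitotic kinesin at the adjusted threshold, while 10, 9 and 9 were lower at an unadjusted p under 0.05 without DMSO replicates 1, 2 and 3. In those fits 8.92%, 8.52% and 8.7% of all tested genes were lower at an unadjusted p under 0.05, and 100, 0 and 148 genes in all were called lower. The median log2 fold change of the mitotic class was -1.06, -1.06 and -0.96 in them. Leaving out HC278 replicate 2 left 1 called, where 142 of all 15881 tested genes were called lower. Leaving out HC278 replicate 1 left 7 called, where 418 of all 15891 tested genes were called lower. Without HC278 replicate 6, all 12 were called lower, in a fit that called 20.7% of all tested genes lower and 19.8% higher. Those shares are the background for every call without HC278 replicate 6 given below. No mitotic kinesin changed sign with 1 library left out. With library size alone in place of TMM factors, KIF15 (adjusted p = 0.0823) and KIF20A (adjusted p = 0.109) lost their calls.

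**Figure D2:**
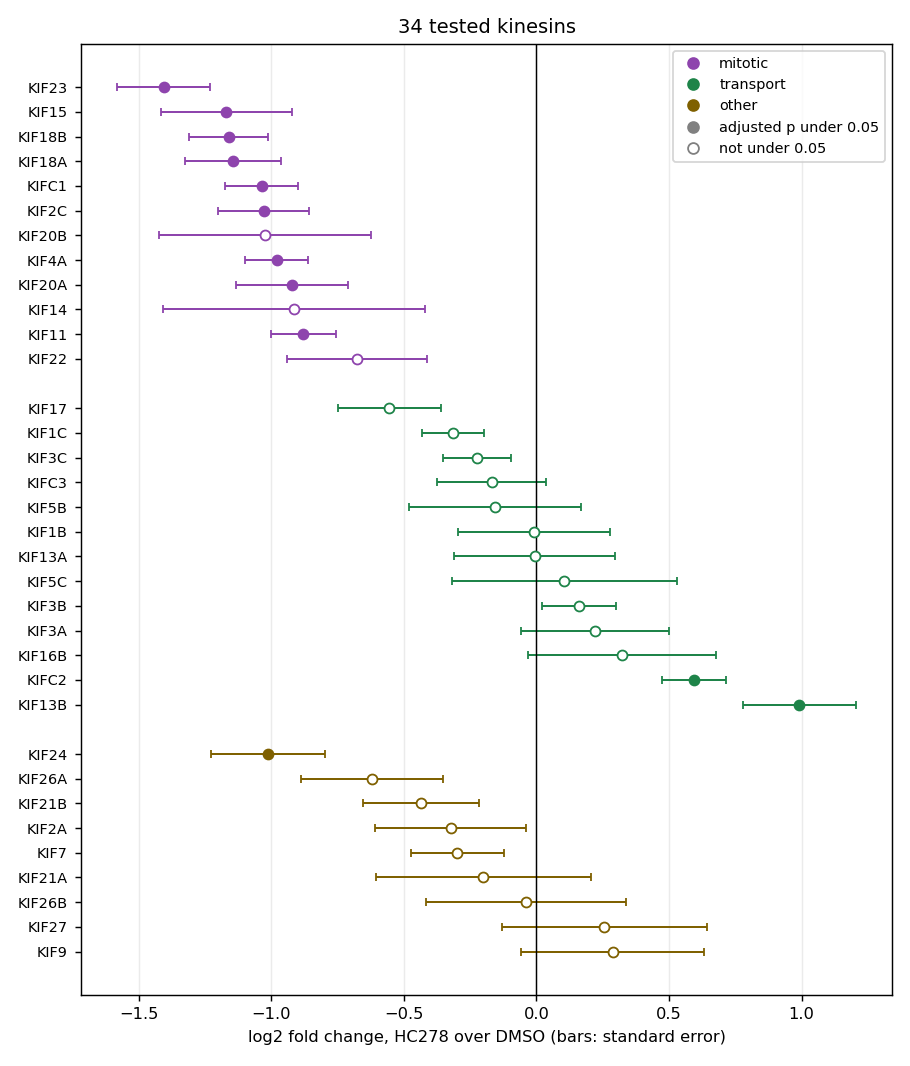
Log2 fold change of HC278 over DMSO for the 34 tested kinesins, with bars of 1 standard error; filled points have an adjusted p under 0.05. All 12 mitotic kinesins lie between -1.41 and -0.68, and the 13 transport kinesins lie between -0.55 and 0.99.

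KIF11, KIF15 and KIFC1 set the distance between the spindle poles. KIF11 (Eg5; ENSG00000138160, chr10:92593130-92655395, plus strand in hg38) slides antiparallel microtubules apart and is the target of spindle-blocking drugs. It had 40.8, 41.9 and 46.4 CPM with HC278, against 75.1, 73.9 and 88.4 CPM with DMSO. No HC278 library reached the lowest DMSO library, and KIF11 fell to 43.0 ± 2.95 CPM under HC278, against 79.1 ± 8.03 CPM under DMSO (log2 fold change -0.88, SE 0.12, adjusted p = 0.0111). KIF15 (ENSG00000163808, chr3:44761721-44873376, plus strand) can keep a spindle bipolar when KIF11 is inhibited. It was at 7.01, 9.95 and 13.04 CPM with HC278, against 20.8, 20.6 and 26.2 CPM with DMSO. The groups stood apart for KIF15 as well, and it fell (log2 fold change -1.17, SE 0.25, adjusted p = 0.0347). KIFC1 (HSET; ENSG00000237649, chr6:33391823-33409896, plus strand) pulls in the opposite sense, towards microtubule minus ends, and gathers extra centrosomes. Its level was 29.5, 33.1 and 24.96 CPM with HC278, against 58.4, 57.9 and 63.5 CPM with DMSO. HC278 replicate 6 was the lowest of the 6 libraries for KIFC1, and the gene fell (log2 fold change -1.04, SE 0.14, adjusted p = 0.00981).

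KIF2C, KIF18A, KIF18B, KIF4A and KIF22 act on chromosomes and on the ends of microtubules. KIF2C (MCAK; ENSG00000142945, chr1:44739818-44767767, plus strand) removes tubulin from microtubule ends and corrects faulty attachments at centromeres. It had 80.4, 76.5 and 54.1 CPM with HC278, against 143, 141 and 147 CPM with DMSO. The DMSO libraries agreed closely while HC278 replicate 6 was lowest, and KIF2C fell (log2 fold change -1.03, SE 0.17, adjusted p = 0.0175). KIF18A (ENSG00000121621, chr11:28020619-28108156, minus strand) dampens the swings of chromosomes at the metaphase plate. Its level was 14.3, 16.9 and 20.3 CPM with HC278, against 33.2, 36.1 and 44.5 CPM with DMSO. KIF18A fell, with every HC278 library under every DMSO library (log2 fold change -1.14, SE 0.18, adjusted p = 0.0157). Its relative KIF18B (ENSG00000186185, chr17:44924709-44947773, minus strand) limits the growth of astral microtubules. It was at 14.6, 18.0 and 19.4 CPM with HC278, against 35.4, 38.3 and 42.5 CPM with DMSO. It too fell without overlap between groups (log2 fold change -1.16, SE 0.15, adjusted p = 0.0091), and the ratio of KIF18A to KIF18B in TPM, a unit per transcript length, was 1.02, 0.982 and 1.09 with HC278, against 0.979, 0.984 and 1.09 with DMSO, ranges that overlap.

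KIF4A (ENSG00000090889, chrX:70290104-70420886, plus strand) is a chromokinesin that later sets the length of the central spindle together with PRC1. It had 33.0, 37.8 and 36.4 CPM with HC278, against 67.3, 67.2 and 77.2 CPM with DMSO. KIF4A fell, with the smallest adjusted p of the kinesins in this fit (log2 fold change -0.98, SE 0.12, adjusted p = 0.00771), and HC278 replicate 6 lay between the other HC278 libraries. KIF22 (Kid; ENSG00000079616, chr16:29790719-29805385, plus strand) pushes chromosome arms away from the poles. Its values were 57.6, 51.8 and 28.96 CPM with HC278, against 81.6, 73.4 and 66.1 CPM with DMSO. All HC278 libraries were below all DMSO libraries, but the difference did not pass the test (log2 fold change -0.68, SE 0.26, adjusted p = 0.166). Without HC278 replicate 6, the lowest library, the difference of KIF22 was smaller and called (log2 fold change -0.43, adjusted p = 0.0276), and with a trend on GC content taken out it was called as well (log2 fold change -0.85, adjusted p = 0.035). CENPE, a kinesin of the kinetochore whose symbol keeps it out of the members, had 17.1, 20.3 and 37.0 CPM with HC278, against 37.6, 43.5 and 60.4 CPM with DMSO. CENPE did not pass (log2 fold change -0.93, SE 0.34, adjusted p = 0.141). Leaving out HC278 replicate 6 gave a call, lower (log2 fold change -1.34, adjusted p = 0.00618).

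The motors of the midzone and of cell cleavage are KIF23, KIF20A, KIF20B and KIF14. KIF23 (MKLP1; ENSG00000137807, chr15:69414246-69448427, plus strand) forms the centralspindlin complex with RACGAP1. It had 43.1, 53.5 and 62.8 CPM with HC278, against 129, 134 and 159 CPM with DMSO. The highest HC278 library was far under the lowest DMSO library, and KIF23 fell to 53.1 ± 9.87 CPM under HC278, against 141 ± 15.6 CPM under DMSO (log2 fold change -1.41, SE 0.17, adjusted p = 0.00829). In this fit no other of the 34 tested kinesins fell by more, whereas without HC278 replicate 6 KIF14 (log2 fold change -1.64) and with the GC trend taken out KIF18B (log2 fold change -1.34) were the lowest. KIF20A (MKLP2; ENSG00000112984, chr5:138178719-138187723, plus strand) brings the chromosomal passenger complex to the midzone. The level was 38.4, 47.0 and 61.8 CPM with HC278, against 82.6, 86.6 and 109 CPM with DMSO. It fell with an adjusted p just under the threshold (log2 fold change -0.92, SE 0.21, adjusted p = 0.0438), and with upper quartile factors the adjusted p was 0.051.

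KIF20B (ENSG00000138182, chr10:89701610-89774939, plus strand) and KIF14 (ENSG00000118193, chr1:200551497-200620751, minus strand) act late, at the closing furrow and at abscission. KIF20B was at 16.4, 21.4 and 44.5 CPM with HC278, against 45.6, 50.6 and 71.5 CPM with DMSO. HC278 replicate 6 came close to DMSO replicate 1 without reaching it, and KIF20B was not called (log2 fold change -1.03, SE 0.40, adjusted p = 0.166). KIF14 was at 11.0, 12.7 and 35.0 CPM with HC278, against 29.4, 30.2 and 51.2 CPM with DMSO. Here HC278 replicate 6 exceeded DMSO replicates 1 and 2, so the groups overlapped and the test was not passed (log2 fold change -0.91, SE 0.50, adjusted p = 0.307). Leaving out HC278 replicate 6 gave calls for both, KIF20B (log2 fold change -1.57, adjusted p = 0.00429) and KIF14 (log2 fold change -1.64, adjusted p = 0.00675). Each of the pair was called in 3 of 17 alternative fits. KIF14 and KIF20B were among the 9 of 12 mitotic kinesins that were higher in HC278 replicate 6 than in the other HC278 libraries.

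**Figure D3:**
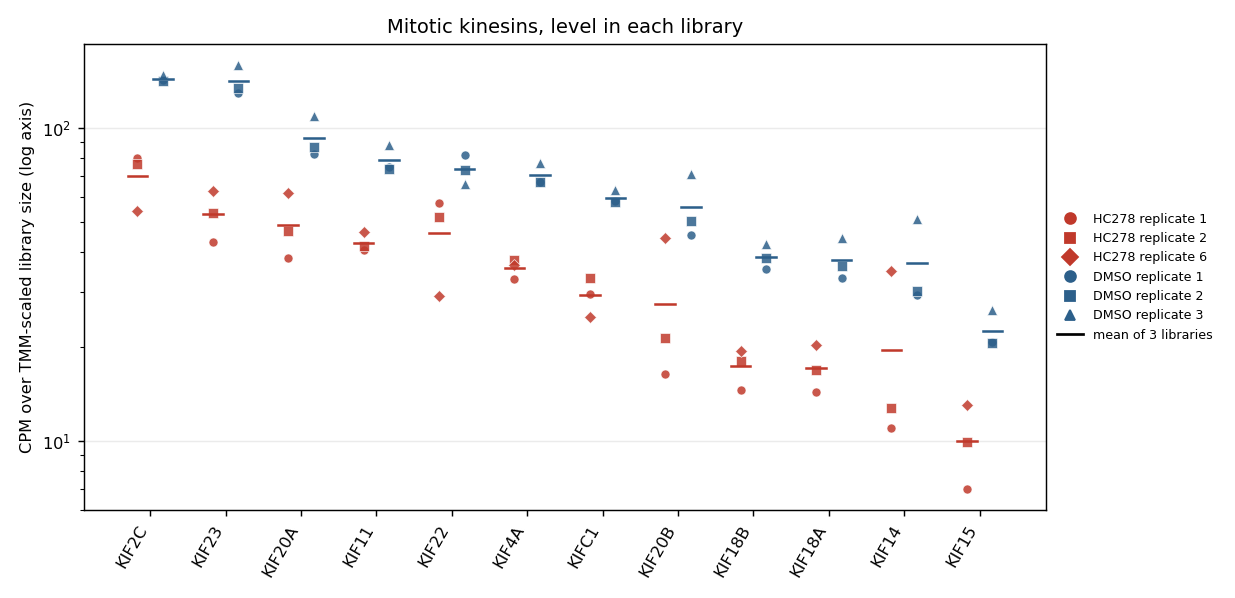
CPM of the 12 mitotic kinesins in each library on a log axis, HC278 on the left and DMSO on the right of each gene, with the group mean as a line. In 11 of 12 genes no HC278 library reaches the lowest DMSO library, against 17.5% of all tested genes, and KIF14 is the exception.

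Partners of the mitotic motors were taken from a list of 20 genes of spindle and midzone. Of these, 8 were called lower and none higher, where 5.38% of all tested genes were called lower and 5.4% higher. All HC278 libraries lay below all DMSO libraries in 16 of the 20, against 17.5% of all tested genes. The median log2 fold change of the list was -0.88. RACGAP1, the other subunit of centralspindlin, had 46.6, 54.98 and 61.0 CPM with HC278, against 103, 104 and 126 CPM with DMSO. The groups did not overlap and RACGAP1 fell (log2 fold change -1.03, SE 0.15, adjusted p = 0.0124). The TPM ratio of KIF23 to RACGAP1 was 0.63, 0.664 and 0.702 with HC278, against 0.856, 0.881 and 0.861 with DMSO, lower in each HC278 library than in any DMSO library and not tested. PRC1, the crosslinker on which KIF4A works, had 92.7, 105 and 101 CPM with HC278, against 199.7, 200.2 and 229.9 CPM with DMSO. PRC1 fell (log2 fold change -1.07, SE 0.12, adjusted p = 0.00655), and the TPM ratio of KIF4A to PRC1 was 0.43, 0.434 and 0.436 with HC278, against 0.407, 0.405 and 0.406 with DMSO. The 4 further partners with the smallest adjusted p were CDCA8, a subunit of the passenger complex (log2 fold change -1.36, adjusted p = 0.00476), the kinase AURKA (-1.13, adjusted p = 0.00705), its activator TPX2 (-0.95, adjusted p = 0.00867) and the spindle protein NUSAP1 (-0.98, adjusted p = 0.0105), all lower.

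Transport motors were read in the same fit. The classical kinesin-1 heavy chains are KIF5A, KIF5B and KIF5C, which bind cargo with kinesin light chains. KIF5B (ENSG00000170759, chr10:32009015-32056425, minus strand), the form found in most tissues, had 77.0, 75.5 and 155 CPM with HC278, against 101, 100.3 and 141 CPM with DMSO. HC278 replicate 6 was the highest library and HC278 replicates 1 and 2 were the lowest, so the groups overlapped (log2 fold change -0.16, SE 0.32, adjusted p = 0.814). Without HC278 replicate 6, KIF5B was called lower (log2 fold change -0.59, adjusted p = 0.0337), and without DMSO replicate 3 its sign turned (log2 fold change 0.02, adjusted p = 0.988). KIF5C, known mainly from neurons, stayed at or under 1.55 CPM (log2 fold change 0.11, adjusted p = 0.911). KIF5A, another neuronal form, had at most 2 counts in any library and was not tested. The light chains KLC1 (log2 fold change 0.28, adjusted p = 0.336), KLC2 (-0.23, adjusted p = 0.184), KLC3 (-0.04, adjusted p = 0.946) and KLC4 (0.47, adjusted p = 0.164) were not called.

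Kinesin-2 motors carry cargo in the cytoplasm and build cilia, as a pair of KIF3A with KIF3B or KIF3C joined to the adaptor KIFAP3, or as KIF17. KIF3B (ENSG00000101350, chr20:32277651-32335011, plus strand) had 75.8, 67.2 and 87.2 CPM with HC278, against 65.7, 64.6 and 75.8 CPM with DMSO. The groups overlapped and KIF3B was not called (log2 fold change 0.16, SE 0.14, adjusted p = 0.534). KIF3A (log2 fold change 0.22, adjusted p = 0.684) and KIF3C (-0.22, adjusted p = 0.329) were not called either. KIFAP3, by contrast, had 9.33, 9.89 and 11.7 CPM with HC278, against 6.23, 6.37 and 5.67 CPM with DMSO. Every HC278 library lay above every DMSO library and KIFAP3 rose (log2 fold change 0.76, SE 0.14, adjusted p = 0.0259). It was the 1 call among 21 transport partners, where 5.4% of all tested genes were called higher and 5.38% lower. The TPM ratio of KIFAP3 to KIF3B was 0.151, 0.181 and 0.165 with HC278, against 0.117, 0.121 and 0.092 with DMSO, without overlap and not tested. The call of KIFAP3 was lost with library size alone (adjusted p = 0.0704) and with no filter on low counts (adjusted p = 0.06). It was also lost without HC278 replicate 2 and without each DMSO library, with adjusted p from 0.0953 to 0.13. KIF17 was at 6.98, 5.17 and 4.62 CPM with HC278, against 8.61, 8.61 and 7.39 CPM with DMSO, below DMSO in each HC278 library without passing the test (log2 fold change -0.55, SE 0.19, adjusted p = 0.13). With the trend on GC content taken out KIF17 was called lower (log2 fold change -0.79, adjusted p = 0.0131).

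Kinesin-3 motors carry vesicles and organelles over long distances. KIF13B (ENSG00000197892, chr8:29067278-29263124, minus strand), which is known to carry receptors to the cell surface, had 6.84, 7.04 and 9.97 CPM with HC278, against 3.76, 3.56 and 4.67 CPM with DMSO. The lowest HC278 library stood above the highest DMSO library, and KIF13B rose to 7.95 ± 1.75 CPM under HC278, against 3.996 ± 0.59 CPM under DMSO (log2 fold change 0.99, SE 0.21, adjusted p = 0.0356). Its relative KIF13A, a carrier of endosomes, had 72.3, 82.2 and 151 CPM with HC278, against 90.5, 95.0 and 122 CPM with DMSO. That gene's groups overlapped, with HC278 replicates 1 and 2 lowest and HC278 replicate 6 highest (log2 fold change -0.01, SE 0.30, adjusted p = 0.992). In TPM the ratio of KIF13A to KIF13B was 10.6, 11.7 and 15.2 with HC278, against 24.0, 26.6 and 26.1 with DMSO, lower in each HC278 library and not tested. KIF1C (ENSG00000129250, chr17:4997950-5028401, plus strand), which carries integrin-bearing vesicles and messenger RNA to cell protrusions, had 269, 277 and 314 CPM with HC278, against 350.3, 350.2 and 368 CPM with DMSO. All HC278 libraries were below the DMSO libraries, yet KIF1C was not called (log2 fold change -0.31, SE 0.12, adjusted p = 0.149). DESeq2 called it lower (log2 fold change -0.32, adjusted p = 0.0351), as did edgeR without HC278 replicate 6 (log2 fold change -0.39, adjusted p = 0.0138).

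KIF1B, a carrier of mitochondria and synaptic vesicle precursors, had 36.0, 37.9 and 70.9 CPM with HC278, against 43.3, 47.0 and 55.7 CPM with DMSO. The groups overlapped (log2 fold change -0.01, SE 0.29, adjusted p = 0.986), and without HC278 replicate 6 KIF1B was called lower (log2 fold change -0.40, adjusted p = 0.0451). KIF16B, a motor of early endosomes, was not called (log2 fold change 0.32, adjusted p = 0.635) and its sign turned without HC278 replicate 6 (log2 fold change -0.10, adjusted p = 0.756). KIF1A, the neuronal member, had at most 3 counts in any library and was not tested. The minus-end motors complete the class. KIFC2 (ENSG00000167702, chr8:144466043-144474202, plus strand), known from axons and dendrites, had 30.7, 27.9 and 30.5 CPM with HC278, against 20.1, 21.3 and 17.6 CPM with DMSO. KIFC2 rose, with no overlap between groups (log2 fold change 0.59, SE 0.12, adjusted p = 0.0314), but with the trend on GC content taken out it was not called (log2 fold change 0.26, adjusted p = 0.397). KIFC3, which works at cell junctions and in vesicle transport, had 143, 133 and 88.3 CPM with HC278, against 151, 139 and 119.5 CPM with DMSO, with overlap and no call (log2 fold change -0.17, SE 0.21, adjusted p = 0.671). Neither KIF13B nor KIFC2 was called with any 1 DMSO library left out, or without HC278 replicate 1 or 2, and neither changed sign. With library size alone, KIF13B (adjusted p = 0.0856) and KIFC2 (adjusted p = 0.061) lost their calls, as did KIFC2 with no filter (adjusted p = 0.0902).

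**Figure D4:**
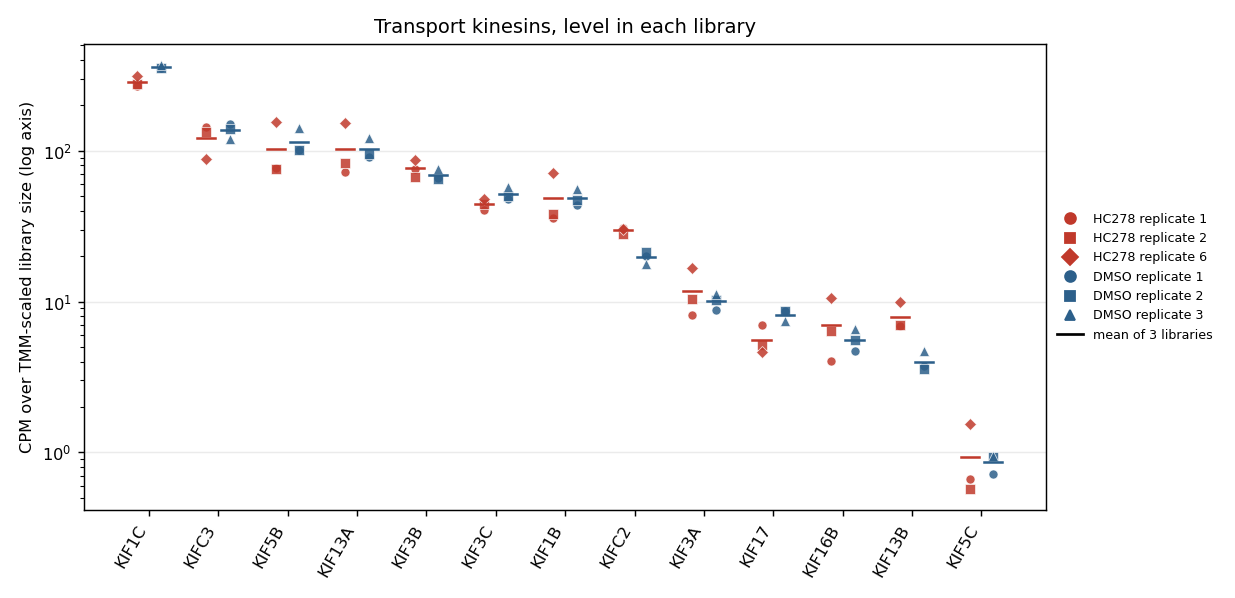
CPM of the 13 tested transport kinesins in each library on a log axis, HC278 on the left and DMSO on the right of each gene, with the group mean as a line. HC278 libraries lie above all DMSO libraries for KIF13B and KIFC2 and below them for KIF1C and KIF17. HC278 replicate 6 is the highest library in KIF5B, KIF13A, KIF1B, KIF13B, KIF16B, KIF3A, KIF3B and KIF5C.

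Among the other kinesins KIF24 (ENSG00000186638, chr9:34252381-34311371, minus strand), which restrains the formation of cilia at the mother centriole, had 2.28, 2.85 and 3.48 CPM with HC278, against 4.98, 5.8 and 6.65 CPM with DMSO. All HC278 libraries were below all DMSO libraries and KIF24 fell (log2 fold change -1.01, SE 0.22, adjusted p = 0.0348). Among tested members outside the mitotic class with a searched promoter window, only KIF24 had CCAAT placed before CHR in the way described above. The windows of KIF13B, KIFC2, KIFC3, KIF21B, KIF26B and KIF27 were not used. The spacing limit was set after the positions had been seen. The RefSeq start of KIF24 lies upstream of the gene coordinates given here. Whether the arrangement bears on the fall of KIF24 was not tested. With library size alone the adjusted p of KIF24 was 0.0818, and without HC278 replicate 1 or 2 or any 1 DMSO library it lay between 0.0807 and 0.148, so that the call was lost. KIF2A, a microtubule depolymerase of spindle poles and neurites and the closest relative of KIF2C among the tested members, had 19.5, 24.6 and 40.7 CPM with HC278, against 32.5, 32.8 and 40.9 CPM with DMSO. HC278 replicate 6 lay among the DMSO libraries and KIF2A was not called (log2 fold change -0.32, SE 0.28, adjusted p = 0.537). Without HC278 replicate 6 KIF2A was called lower (log2 fold change -0.68, adjusted p = 0.017). KIF26A (log2 fold change -0.62, adjusted p = 0.206) and KIF21B (-0.44, adjusted p = 0.269) were lower in every HC278 library and were not called. KIF7, a regulator of Hedgehog signalling at the cilium (-0.30, adjusted p = 0.345), KIF21A (-0.20, adjusted p = 0.81), KIF26B (-0.04, adjusted p = 0.963), KIF27 (0.26, adjusted p = 0.738) and KIF9 (0.29, adjusted p = 0.667) overlapped between groups and were not called.

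The 6 remaining members of this class were at the edge of detection and were not tested. KIF6 had 2 to 10 counts a library, KIF12 4 to 9, KIF25 0 to 4, KIF4B 0 to 4 and KIF19 0 to 2. KIF2B had no count in any library, which allows up to 3 counts, or 0.105 CPM in the library where that limit is highest, for counting error only. KIF4B is a near-copy of KIF4A, so that reads of one may be counted for the other. Exons of some members also overlap those of neighbours, and the strand setting of the counting is not given in the sources used here, so their values are uncertain. This holds for KIF20A with BRD8 and CDC23 (log2 fold changes -0.15 and -0.37), KIF4A with PDZD11 (0.18), KIF24 with UBAP1 (0.15), KIF2A with IPO11 (-0.27), KIF9 with KLHL18 (-0.23) and with the antisense gene KIF9-AS1, and for KIF7 with TICRR (-1.23). Of the neighbours given with a value TICRR alone was called, lower in HC278 (adjusted p = 0.00746).

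Levels of different kinesins can be set side by side only per length, in the authors' TPM. The summed TPM of all 42 kinesins was 497, 580.5 and 945 in HC278 replicates 1, 2 and 6, against 927, 954 and 1207.5 in DMSO replicates 1, 2 and 3. Mitotic kinesins made up 44.6%, 46.3% and 40.1% of that sum in HC278 replicates 1, 2 and 6, against 58.15%, 58.3% and 59.1% in DMSO replicates 1, 2 and 3. Transport kinesins made up 51.1%, 49.0% and 53.5% in the HC278 libraries, against 37.8%, 37.6% and 36.6% in the DMSO libraries. The mitotic share averaged 43.7 ± 3.24% under HC278 and 58.5 ± 0.519% under DMSO (SD, n = 3 libraries each), a description without a test. The summed level itself overlapped between groups, with HC278 replicate 6 above DMSO replicate 1, whereas the mitotic and transport shares did not. The share of the other kinesins overlapped.

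**Figure D5:**
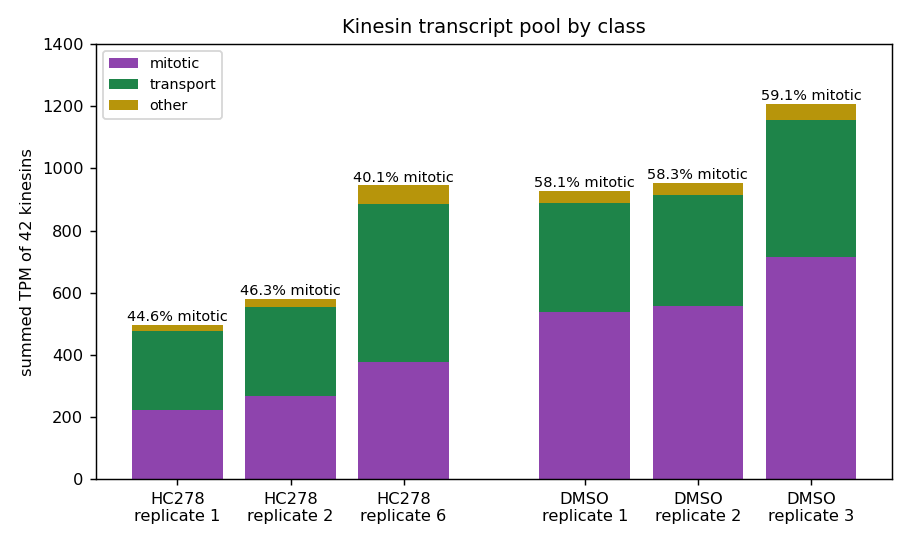
Summed TPM of the 42 kinesins in each library, stacked by class, with the mitotic share above each bar. The sum runs from 497 to 945 in HC278 libraries and from 927 to 1207.5 in DMSO libraries, and the mitotic share lies at or under 46.3% in the HC278 bars and at or over 58.15% in the DMSO bars.

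The order of levels differed with it. Under HC278 the highest kinesins were KIF1C at 105 ± 36.0 TPM, KIF5B at 58.2 ± 40.8 TPM and KIF2C at 57.9 ± 2.3 TPM. The place of KIF5B rested on HC278 replicate 6. Over HC278 replicates 1 and 2 alone KIF5B averaged 34.6 TPM and came after KIF2C (57.3 TPM) and KIFC3 (48.5 TPM). Under DMSO the highest were KIF1C at 134 ± 13.9 TPM, KIF2C at 127 ± 12.3 TPM and KIF20A at 78.0 ± 18.2 TPM. KIF1C and KIF2C lay within their spread of each other under DMSO, as did KIF5B and KIF2C over the 3 HC278 libraries. KIF23 was 11th of the 42 under HC278 and 4th under DMSO. Within the mitotic class the TPM ratio of KIF20A to KIF23 was 1.52, 1.5 and 1.68 with HC278, against 1.09, 1.1 and 1.18 with DMSO. That ratio was higher in every HC278 library than in any DMSO library, and the difference was not tested.

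In each library, the mitotic class was also set against the transport class directly, as the median log2 CPM relative to the DMSO mean over the 12 mitotic genes minus that over the 13 tested transport genes. This difference was -0.98, -0.82 and -1.47 in HC278 replicates 1, 2 and 6. In DMSO replicates 1, 2 and 3 it was -0.01, -0.05 and 0.02. The DMSO libraries supplied the DMSO mean, so their own differences were centred by construction and are not an independent reference. HC278 replicate 6 gave the widest gap between the classes. Its transport median was 0.54, where those of HC278 replicates 1 and 2 were -0.36 and -0.22. Its mitotic median was -0.93, where those of HC278 replicates 1 and 2 were -1.34 and -1.05. Exon length had a median of 4662 bases in the mitotic class, 7721 in the transport class and 4595 over all tested genes. With a length trend taken out of each library, 9.22% of tested genes were called lower and 8.58% higher, and with a GC trend taken out 7.26% and 5.53%. Mitotic kinesins called lower numbered 9 of 12 with the length trend taken out and 10 of 12 with the GC trend taken out.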

How the data were processed

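RNA sequencing libraries of NCI-H226 cells, 3 given HC278 and 3 given DMSO, were analysed from 1 deposited table of 60676 genes. Per the labels' protocols, libraries were made with a stranded mRNA kit from Trizol-extracted RNA. The deposited counts are whole reads per gene, per the file headers. The authors also deposited TPM and RPKM values. The deposited column headed CPM is a scaled coverage signal. Of these only TPM is printed, and relative gene lengths came from counts and TPM. The submitters' processing notes name hg38. The aligner, the program that counted reads and its strand setting are not given in the sources used.

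Groups came from the sample titles. Counts were tested with edgeR 4.0.16 (R 4.3.3), glmQLFit and glmQLFTest, TMM factors, filterByExpr by group (minimum count 10), with Benjamini-Hochberg adjustment over all 15510 tested genes and no covariate. The common biological coefficient of variation was 26%. Standard errors were taken as the log2 fold change over the root of the F statistic. CPM was computed from counts over TMM-scaled library sizes. Class medians per library used log2 CPM without a prior count. A prior count of 2 entered only the log2 CPM behind the length and GC trends and the correlation of library deviations. Gene coordinates are those of the deposited table; exon lengths and GC content came from GENCODE release 29, and a GC value was found for 99.19% of tested genes. Motifs were searched in RefSeq promoter windows (GRCh38.p14). A limit of 3 counts equals 0.0877 to 0.105 CPM, depending on the library, for counting error alone.

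Alternatives to the scaling were upper quartile factors, DESeq2 size factors in edgeR and library size without factors. Alternatives to the test were limma-voom (limma 3.58.1) and DESeq2 1.42.0. Further alternatives were no filter, at least 10 counts in 3 libraries, the replicate number as a block, a length trend (loess, span 0.5) taken out, each library left out, and HC278 replicate 6 with DMSO replicate 3 left out. A GC trend taken out was chosen after seeing the data. No pair of libraries within a group agreed within sampling noise (chi-square per degree of freedom 4.02 to 313.3).

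The members and the gene lists were chosen with earlier results of these data known. Every kinesin is named; of each partner list the rule named CENPE, RACGAP1, PRC1, KLC1 to KLC4 and KIFAP3 and up to 4 more with the smallest adjusted p. Of the marker lists, mesothelial genes were called higher for 3 and lower for 1 of 10, the immune and endothelial list had 2 of 7 tested with 1 called higher, and the neuronal list had 3 of 5 tested with none called. Protein sequences were not used here. Figures were drawn with matplotlib 3.10.9.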

Additional observations from a re-analysis of the deposited data

How the results depend on the processing

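The direction of all 12 mitotic kinesins held under every alternative run, while the number of calls depended on single libraries. With 1 library left out, mitotic kinesins called lower ran from 0 to 12 (lowest with a DMSO library left out, highest without HC278 replicate 6), spindle and midzone partners from 0 to 19, transport kinesins called lower from 0 to 3 and higher from 0 to 2, other kinesins called lower from 0 to 6, and transport partners called lower from 0 to 3 and higher from 0 to 2. All genes ran from 0 to 3280 called lower and from 0 to 3133 called higher. At 0 edgeR calls, without DMSO replicate 2, 2864 genes had an unadjusted p under 0.05. The cause was not tested.

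Genes called lower and higher over the whole table numbered 835 and 837 in the fit reported, 1454 and 1364 by DESeq2, 1430 and 1330 with the length trend taken out, 3274 and 3048 without both HC278 replicate 6 and DMSO replicate 3, and 553 called higher with no filter, in which more genes were tested. DESeq2 called 13 spindle partners, 1 transport partner and 1 transport kinesin lower. Without both libraries, 12 mitotic, 4 transport and 6 other kinesins, 19 spindle partners and 4 transport partners were called lower. Called higher in that fit were 2 transport kinesins and 3 transport partners. Library size alone left 0 transport kinesins and 0 transport partners called higher and 0 other kinesins called lower; no filter left 1 transport kinesin and 0 transport partners higher; the GC trend taken out gave 1 transport kinesin lower and 1 higher; the length trend taken out gave 1 transport partner lower.

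The replicate numbers 1 and 2 are shared by both groups, but nothing in the labels says that they pair libraries, and the correlation of deviations was 0.517 for number 1 and 0.183 for number 2, against 0.384 and 0.327 between HC278 and DMSO libraries of the crossed numbers. HC278 replicate 6 and DMSO replicate 3, which share no number, deviated together most (0.686). As numbers 3 and 6 each occur in 1 group, a block leaves the contrast to the other 4 libraries, as leaving both out does. With the replicate number as a block, 4218 genes were called lower and 3954 higher. Called lower were 12 mitotic, 6 transport and 6 other kinesins, 19 spindle partners and 6 transport partners. Called higher were 2 transport kinesins, 1 other kinesin and 3 transport partners. Under that block, log2 fold changes that turned sign were KIF27 -0.073, KIF3A -0.038, KIF5C -0.42 and KLC3 0.073.

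Other turned signs were all in uncalled genes. These were KIF26B 0.029, KIF13A 0.065, KIF1B 0.061 and KLC3 0.035 with upper quartile factors, KIF13A 0.020 and KIF1B 0.014 with library size alone, KIF13A 0.025 and KIF1B 0.032 with the GC trend taken out, KIF5C -0.018 with limma-voom, and KIF27 -0.074, KIF3A -0.033, KIF5C -0.42 and KLC3 0.074 without both libraries. With 1 library left out, log2 fold changes ran from -0.79 to 0.059 for KIF21A, -0.60 to 0.20 for KIF26B, -0.26 to 0.47 for KIF27, -0.023 to 0.56 for KIF9, -0.41 to 0.18 for KIF13A, -0.10 to 0.59 for KIF16B, -0.40 to 0.16 for KIF1B, -0.12 to 0.42 for KIF3A, -0.59 to 0.021 for KIF5B, -0.49 to 0.36 for KIF5C, -0.31 to 0.010 for KIFC3 and -0.23 to 0.17 for KLC3. Of the values of single named genes recomputed under the alternatives, 553 kept direction and side of the threshold, 51 passed it newly, 72 no longer passed it and 38 turned sign.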
